A study of Mus musculus with 2 samples.

Results

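The receptors described here are 9 genes, Kit, Flt3, Epor, Csf1r, Csf2rb, Csf3r, Tek, Cxcr4 and Il6st, out of 32285 genes counted in single cells of the mouse fetal liver at E14.5. They were chosen by name, as receptors through which blood cells and their neighbours receive growth factors, by a rule that uses no measured value, although earlier results of these data were known. Both libraries came from CD1 embryos, an outbred stock, whose livers had been depleted of lineage-positive cells and sorted for LSK cells (lineage-negative, SCA1-positive, cKIT-positive). The WT library pooled 2 embryos with both copies of Nfkbia, the gene of the NF-κB inhibitor IκBα, and the KO library pooled 3 embryos that carried the germline knockout of that gene in every cell. There was 1 library per genotype, so genotype, embryo pool, embryo sex, sequencing depth and library preparation cannot be told apart, no test between genotypes was possible, and every interval given below covers counting error only.

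Nfkbia was counted 1478 times in the WT library (13.6 CPM, the usual depth-scaled count of a gene relative to all counts of the library or class) and 7 times in the KO library (0.071 CPM), so both libraries matched their genotype labels. After filtering, 3458 WT cells and 4417 KO cells remained, with a median of 28065 and 19560 UMIs (unique molecular identifiers, each of which marks 1 captured transcript) per cell. The libraries shared 7 cell barcodes, 6 of them among the kept cells. Cells were classed by the number of marker genes with a UMI, and none of the 9 receptors served as a marker. The 11 classes ranked and compared below count the ungated cells, which passed no gate, as a class. They leave out cells that passed more than 1 gate and the few mast/basophil-like and mesenchymal-like cells. The sort label held for part of the cells. Cells with erythroid markers made up 46.6% of the WT and 49.3% of the KO cells, and in the late erythroid-like class Ly6a, which encodes SCA1, was at 0.4 and 0.5 CPM, against 30.9 and 41.0 CPM in the HSC-like class. Hepatocyte-like, endothelial-like and macrophage-like cells were also present (21, 37 and 25 cells in WT and 42, 49 and 71 in KO). Transcripts of the adult globin gene Hbb-bs were detected in at least 80% of the cells of every class. The Hbb-bs level was 360 CPM in WT and 2422 in KO HSC-like cells, and 3058 and 12629 CPM in ungated cells. Of the 11 classes only neutrophil-primed-like (2249 and 976 CPM) and hepatocyte-like cells (685 and 588 CPM) held less in KO. Free RNA in droplets can give such counts in cells that do not express a gene, and its part here was not tested, so the share of cells with a UMI of a receptor is given beside its share in a class that should lack it.

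Kit and Flt3 are receptor tyrosine kinases for stem cell factor and FLT3 ligand and act in stem and early progenitor cells. The erythropoietin receptor encoded by Epor, the G-CSF receptor encoded by Csf3r, and Csf2rb, the common beta chain for GM-CSF, IL-3 and IL-5, have no kinase of their own. They signal through JAK kinases and STAT proteins, as does Il6st (gp130), the shared signalling chain of the IL-6 family. Csf1r is the kinase receptor for M-CSF and IL-34 in macrophages, Tek (TIE2) binds angiopoietins in endothelium and stem cells, and Cxcr4 is the G protein-coupled receptor for CXCL12 that holds stem and lymphoid cells in their niche. In the fetal liver, hepatocytes and their neighbours supply several of the ligands while erythropoiesis takes most of the space.

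The promoter windows of Epor, Flt3 and Tek are shown because each of these receptors was led by a lineage of its own, erythroid-like, lymphoid-primed-like and endothelial-like cells. Each window holds the 250 bases before the RefSeq start on GRCm38.p6, written along the gene's own strand, with matches to the searched motifs in capitals. Epor lies on the minus strand of chromosome 9 (window chr9:21963577-21963826), Flt3 on the minus strand of chromosome 5 (chr5:147400490-147400739) and Tek on the plus strand of chromosome 4 (chr4:94739039-94739288).
Epor: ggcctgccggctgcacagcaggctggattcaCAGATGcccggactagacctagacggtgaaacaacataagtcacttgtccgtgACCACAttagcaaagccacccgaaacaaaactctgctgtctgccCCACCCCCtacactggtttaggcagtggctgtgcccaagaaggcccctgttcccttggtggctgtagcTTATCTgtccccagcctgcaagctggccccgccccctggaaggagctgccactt
Flt3: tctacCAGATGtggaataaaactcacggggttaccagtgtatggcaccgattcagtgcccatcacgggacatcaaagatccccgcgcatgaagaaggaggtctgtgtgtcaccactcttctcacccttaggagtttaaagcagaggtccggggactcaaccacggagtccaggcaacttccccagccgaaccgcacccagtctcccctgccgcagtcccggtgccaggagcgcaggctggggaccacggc
Tek: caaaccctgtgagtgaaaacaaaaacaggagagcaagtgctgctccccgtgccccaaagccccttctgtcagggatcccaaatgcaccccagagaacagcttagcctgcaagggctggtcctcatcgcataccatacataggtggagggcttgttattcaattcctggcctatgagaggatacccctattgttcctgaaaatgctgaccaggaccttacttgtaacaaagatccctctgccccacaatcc

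In the Epor window the capitals mark, from left to right, an E-box (CAGNTG), a RUNX match (TGTGGT, here on the other strand), a CACCC box (CCACNCCC) and a GATA match (AGATAA, also on the other strand), which begin 219, 166, 122 and 54 bases before the start. The Flt3 window held an E-box 245 bases before the start and no other searched motif, and the Tek window held none. Both strands were searched, and PU.1 (GAGGAAG) and C/EBP (TTGCNNAA) were searched as well. Across 32851 windows of the same length, 9.99% held the GATA letters, 15.9% the CACCC box, 10.6% the PU.1 letters, 9.56% the C/EBP letters, 14.0% the RUNX letters and 44.8% the E-box. Of the other receptors with a window, Kit held 1 CACCC box and 1 PU.1 match, 82 and 223 bases before its start, Csf3r held 1 PU.1 match 86 bases before its start, and Cxcr4 and Il6st held none of the motifs. The Kit and Csf3r windows reach past the start that GENCODE vM21 annotates, and the Csf3r match lies inside the gene as annotated there. Windows were read for 7 of the 9 members, and none was read for Csf1r or Csf2rb. No matches overlapped in any window, and a match describes letters, not binding.

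Kit is the receptor of the sort itself, and its transcript was highest in the HSC-like cells. The level there was 111 CPM (95% interval 103 to 119, 790 UMIs in 412 cells) in WT and 101 CPM (92.1 to 111, 456 UMIs in 358 cells) in KO. Kit in the next class, the ungated progenitors that passed no marker gate, was 72.7 CPM in WT and 64.1 in KO, and these intervals lay below those of the HSC-like cells in both libraries. Lymphoid-primed-like cells (66.5 and 62.7 CPM) and neutrophil-primed-like cells (64.0 and 59.9 CPM) could not be separated from the ungated cells or from each other, and early erythroid-like cells followed at 57.2 and 51.4 CPM. The level in late erythroid-like cells was less than that of the early class, at 23.6 and 17.9 CPM. Hepatocyte-like cells held 2 UMIs of Kit in each library (2.39 and 1.89 CPM). The mast/basophil-like cells held 73 Kit UMIs in 9 WT cells (344 CPM) and 4 UMIs in 5 KO cells (47.0 CPM), too few cells to rank.

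After each cell was thinned at random to 8500 UMIs, so that libraries of unlike depth could be compared, Kit was detected in 59.5% of the WT and 49.2% of the KO HSC-like cells (77.9% and 60.1% without thinning). It was detected in 33.7% and 30.4% of the early erythroid-like cells and in 11.5% and 7.87% of the late erythroid-like cells. In hepatocyte-like cells, where the unthinned median depth was 36655 UMIs in WT and 25159.5 in KO against 16200 and 11279.5 in HSC-like cells, it was detected in 0 of 19 WT and 1 of 38 KO cells.

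Flt3 was highest in the lymphoid-primed-like cells, which were gated on Rag1, Satb1, Notch1, Blnk and other lymphoid genes. The WT level in this class was 87.6 CPM (78.0 to 98.0) and the KO level 86.5 CPM (73.9 to 101). Ungated cells (38.3 and 37.4 CPM) and HSC-like cells (36.1 and 33.9 CPM) came next and overlapped each other, and their intervals lay below the lymphoid-primed-like class in both libraries. Monocyte/dendritic-like cells held 25.5 and 20.9 CPM, whereas neutrophil-primed-like cells held 6.80 and 6.53 CPM, so the myeloid classes differed in Flt3 although both held Csf2rb and Csf3r.

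Erythroid-like cells had almost no Flt3, between 0.69 and 1.32 CPM over both erythroid classes and libraries, and endothelial-like cells had 0 UMIs in both, which allows a WT level of up to 5.90 and a KO level of up to 5.16 CPM (3 counts of the class total). The thinned share of Flt3-positive cells was 48.2% and 59.8% in lymphoid-primed-like cells and 21.9% and 23.1% in HSC-like cells, against 0.364% and 0.507% in early erythroid-like cells. Without thinning the lymphoid-primed-like shares were 86.4% and 78.5%.

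Epor was the receptor of the erythroid classes. Late erythroid-like cells held 5069 Epor UMIs in WT, or 139 CPM (136 to 143), and 4325 in KO, or 137 CPM (133 to 141). In early erythroid-like cells it stood at 102 and 108 CPM. Megakaryocyte-like cells (27.2 and 35.8 CPM) and endothelial-like cells (27.6 and 24.1 CPM) shared the next place with overlapping intervals, and every other class lay under 12 CPM. Epor was detected in 67.0% and 64.4% of thinned late erythroid-like cells and in 50.3% and 56.3% of early ones. In monocyte/dendritic-like cells it was detected in 0 of 49 WT and 1 of 46 KO cells, and in lymphoid-primed-like cells in 1 of 110 and 3 of 92.

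Csf1r and Csf2rb marked the mononuclear phagocytes. Csf1r was at 410 CPM (358 to 468) in the WT macrophage-like cells and at 488 CPM (450 to 529) in the KO ones, and at 117 and 112 CPM in monocyte/dendritic-like cells. All others of the 11 classes lay at 15.6 CPM or below, led by lymphoid-primed-like cells (15.6 and 10.9 CPM) and neutrophil-primed-like cells (12.1 and 14.2 CPM). HSC-like cells held 10 UMIs in each library (1.40 and 2.22 CPM). The 9 WT and 5 KO mast/basophil-like cells, outside the 11, held 1 and 2 UMIs (4.71 and 23.5 CPM). Csf1r was detected in 19 of 20 thinned WT and 57 of 60 thinned KO macrophage-like cells, and in 0 of 549 and 3 of 789 early erythroid-like cells.

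Csf2rb was spread more widely over the myeloid classes. Macrophage-like cells held 52.7 CPM in WT and 114 in KO, monocyte/dendritic-like cells 47.3 and 89.2, and neutrophil-primed-like cells 33.2 and 28.8. The intervals of the first pair of classes overlapped in both libraries, so Csf2rb had no single highest class. HSC-like cells held 17.5 and 12.9 CPM and erythroid-like cells between 0.84 and 1.64 CPM. The thinned share of positive cells was 35.0% and 53.3% in macrophage-like cells, 15.2% and 8.46% in HSC-like cells and 0.729% and 0.507% in early erythroid-like cells. The 9 WT and 5 KO mast/basophil-like cells held 28 and 11 Csf2rb UMIs (132 and 129 CPM). Csf2rb has a close copy, Csf2rb2, next to it on chromosome 15, but none of the 411 stretches of 90 bases within the last 500 bases of either full-length Csf2rb transcript also occurred in Csf2rb2, so 3′ reads there could be told apart. A shorter annotated Csf2rb transcript shared 12 of its last 411 stretches, and one of only 397 bases shared 58 of its 308, so reads from these could not all be told apart.

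Csf3r was highest in neutrophil-primed-like cells, with a WT level of 30.0 CPM (24.8 to 35.9) and a KO level of 40.5 CPM (34.3 to 47.6). The classes after it were close together, namely HSC-like cells at 20.9 and 23.7 CPM, ungated cells at 20.3 and 17.2 CPM and monocyte/dendritic-like cells at 16.2 and 19.0 CPM. Macrophage-like cells held 7 and 17 Csf3r UMIs (13.2 and 14.0 CPM). Csf3r was detected in 23.6% and 25.5% of thinned neutrophil-primed-like cells, 17.0% and 15.8% of HSC-like cells and 0.288% and 0.525% of late erythroid-like cells. The HSC-like cells thus carried a Csf3r signal well above that of erythroid-like cells at the same thinned depth.

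Tek and Il6st were led by the endothelial-like cells. In these cells Tek stood at 116 CPM (88.4 to 150) for WT and 143 CPM (114 to 177) for KO, and 65.5% and 65.8% of them were positive after thinning. HSC-like cells held Tek at 7.44 and 7.76 CPM, with 5.67% and 6.54% positive, above the ungated cells at 1.96 and 2.95 CPM, and no Tek UMI was found in monocyte/dendritic-like or hepatocyte-like cells of either library. Megakaryocyte-like cells held 11 and 10 Tek UMIs (8.08 and 4.65 CPM), and their intervals overlapped those of the HSC-like cells in both libraries.

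For Il6st the endothelial-like cells held 84.6 CPM (61.2 to 114) in the WT library and 56.8 CPM (39.1 to 79.7) in the KO library. Macrophage-like cells (18.8 and 22.3 CPM), lymphoid-primed-like cells (15.6 and 20.2 CPM), hepatocyte-like cells (13.1 and 14.2 CPM) and HSC-like cells (10.8 and 9.09 CPM) were lower. In WT the intervals of these classes overlapped, whereas in KO the HSC-like interval (6.53 to 12.3) lay below those of the macrophage-like and lymphoid-primed-like cells. Monocyte/dendritic-like cells held 9.33 CPM in WT and 30.4 in KO, the second-highest class in KO, where their interval (20.8 to 42.8) overlapped that of the endothelial-like cells. Il6st in erythroid-like cells was between 0.47 and 0.96 CPM, with a share of positive cells between 0.150% and 0.760%.

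Cxcr4 had no class that led in both libraries. Monocyte/dendritic-like cells held 11.8 and 15.2 CPM, lymphoid-primed-like cells 8.96 and 17.1, neutrophil-primed-like cells 11.3 and 9.53, and their intervals overlapped. HSC-like cells (6.59 and 7.10 CPM) and ungated cells (6.28 and 6.54 CPM) lay just below. Erythroid-like cells held between 0.19 and 0.31 CPM, and endothelial-like and hepatocyte-like cells held 0 UMIs in both libraries.

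**Figure D1:**
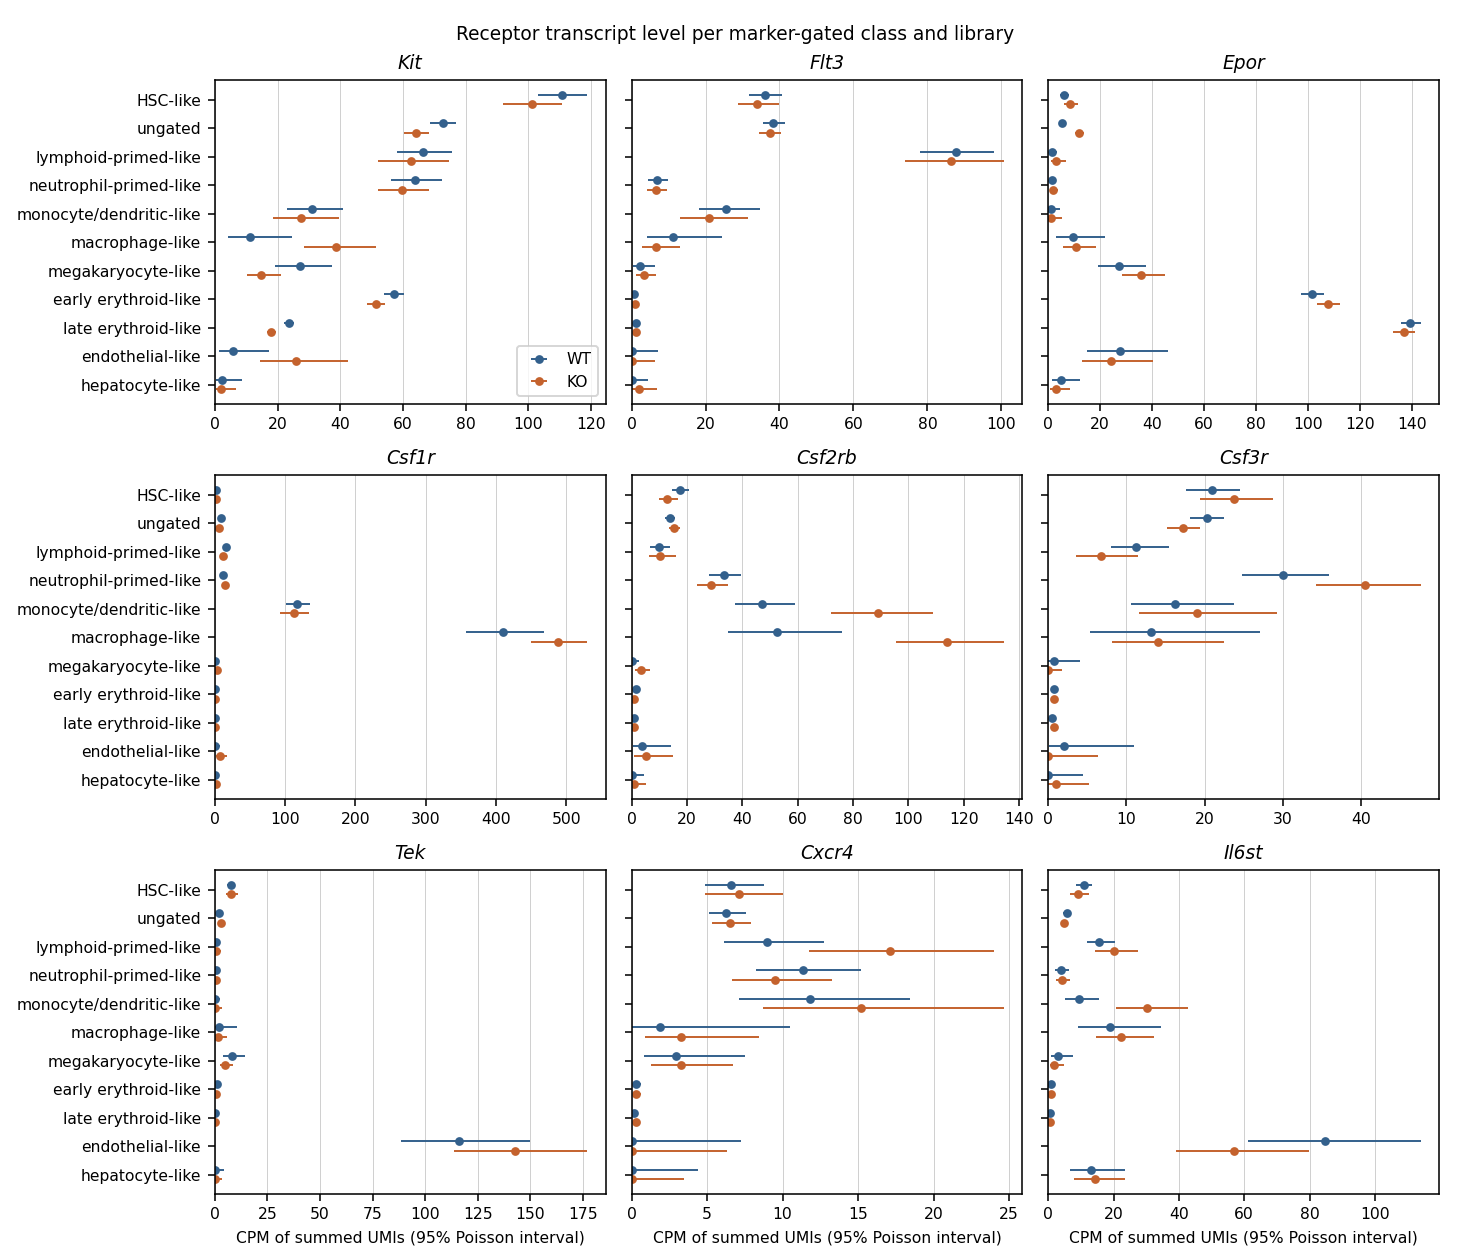
Level of each receptor in each marker-gated class, in CPM of the summed UMIs on a linear axis from 0, with 1 panel per receptor and its own scale. Points are the WT and the KO library and bars are 95% Poisson intervals of counting error. Tek stands apart in endothelial-like cells (116 and 143 CPM), Csf1r in macrophage-like cells (410 and 488 CPM) and Epor in both erythroid classes, whereas Cxcr4 has no class that leads in both libraries.

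How far each receptor was confined to a class was described by the share of its summed class CPM (the mean of both libraries, added over the 11 classes) that lay in the highest class. This share was 86.4% for Tek in endothelial-like cells and 74.2% for Csf1r in macrophage-like cells. It was 42.7% for Il6st, 42.6% for Flt3, 41.2% for Epor, 36.0% for Csf2rb, 29.5% for Csf3r, 23.9% for Cxcr4 and 22.6% for Kit. Kit was thus the most evenly spread of the 9 over these 11 classes, which leave out the mast/basophil-like cells with their 344 and 47.0 CPM. The Epor share was divided with the early erythroid-like class, which held a further 31.3%. For Kit, Flt3, Epor, Csf1r and Tek the intervals of all others of the 11 classes lay below that of the highest class in both libraries. For Csf2rb and Cxcr4 they overlapped in both, for Il6st in KO with the monocyte/dendritic-like cells, and for Csf3r in WT with the macrophage-like cells.

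With unsupervised clusters in place of marker gates, 6 of the 9 receptors kept their highest class. Flt3 moved to the HSC-like cluster (41.6 and 39.6 CPM), because the cluster led by the lymphoid genes Trbc2, Ebf1 and Ighm was pooled with the ungated cells, the commonest gate among its 168 WT and 212 KO cells. Taken alone that cluster held Flt3 at 83.2 CPM in WT and 88.9 in KO. Csf2rb moved to the monocyte/dendritic-like cluster, and Cxcr4 moved to the neutrophil-primed-like cluster. The class with the highest thinned share of positive cells was also the class with the highest CPM for 8 of the 9 receptors, with Cxcr4 as the exception.

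The erythroid-like cells were then ordered by how many of 10 late erythroid markers had a UMI after thinning, and the order separated Kit from Epor. Kit in WT cells was 64.6 CPM with 0 or 1 marker, 50.2 with 2 or 3, 31.5 with 4 or 5, 5.56 with 6 or 7 and 2.10 with 8, and 0 UMIs were left in the 124 cells with 9 or 10 markers. The KO cells followed the same course, from 45.0 over 49.1, 21.9 and 6.22 to 1.33 CPM, with 2.74 CPM in the last bin of 129 cells. Epor ran otherwise.

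Epor in WT cells was 68.4 CPM with 0 or 1 late marker, reached 152 CPM with 4 or 5 and was 88.2 CPM with 9 or 10. In KO cells it went from 86.7 CPM over 144 CPM to 121 CPM across the same bins. In both libraries the bins from 2 to 8 markers exceeded the first bin with intervals that did not overlap. Kit was therefore nearly gone at marker counts where Epor was still above its starting level, a description over the cells of 1 library per genotype.

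Over the HSC-like and ungated cells, ordered by how many of 9 HSC markers had a UMI after thinning, Kit was higher in each further bin in WT, although the intervals of neighbouring bins overlapped. It went from 67.3 CPM with no marker over 94.5 with 2 to 141 CPM (119 to 167) with 5 or more. In KO it went from 53.3 CPM with no marker to 112 with 4, and was 94.4 CPM (71.5 to 122) with 5 or more. Csf1r ran in the opposite direction, from 15.2 CPM with no marker to 1.02 with 5 or more in WT and from 9.87 to 1.66 in KO, where the upper bins rest on 1 UMI each.

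Tek was at 2.67 CPM (0.981 to 5.82) with no HSC marker and 7.16 CPM (2.88 to 14.8) with 5 or more in WT, intervals that overlap, and at 1.58 (0.43 to 4.04) and 14.9 CPM (6.82 to 28.3) in KO, intervals that do not. Flt3 showed no trend, lying between 26.6 and 45.0 CPM in the WT bins and between 28.2 and 42.2 CPM in the KO bins. Csf3r likewise lay between 14.3 and 25.3 CPM in WT and between 9.94 and 25.0 CPM in KO.

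**Figure D2:**
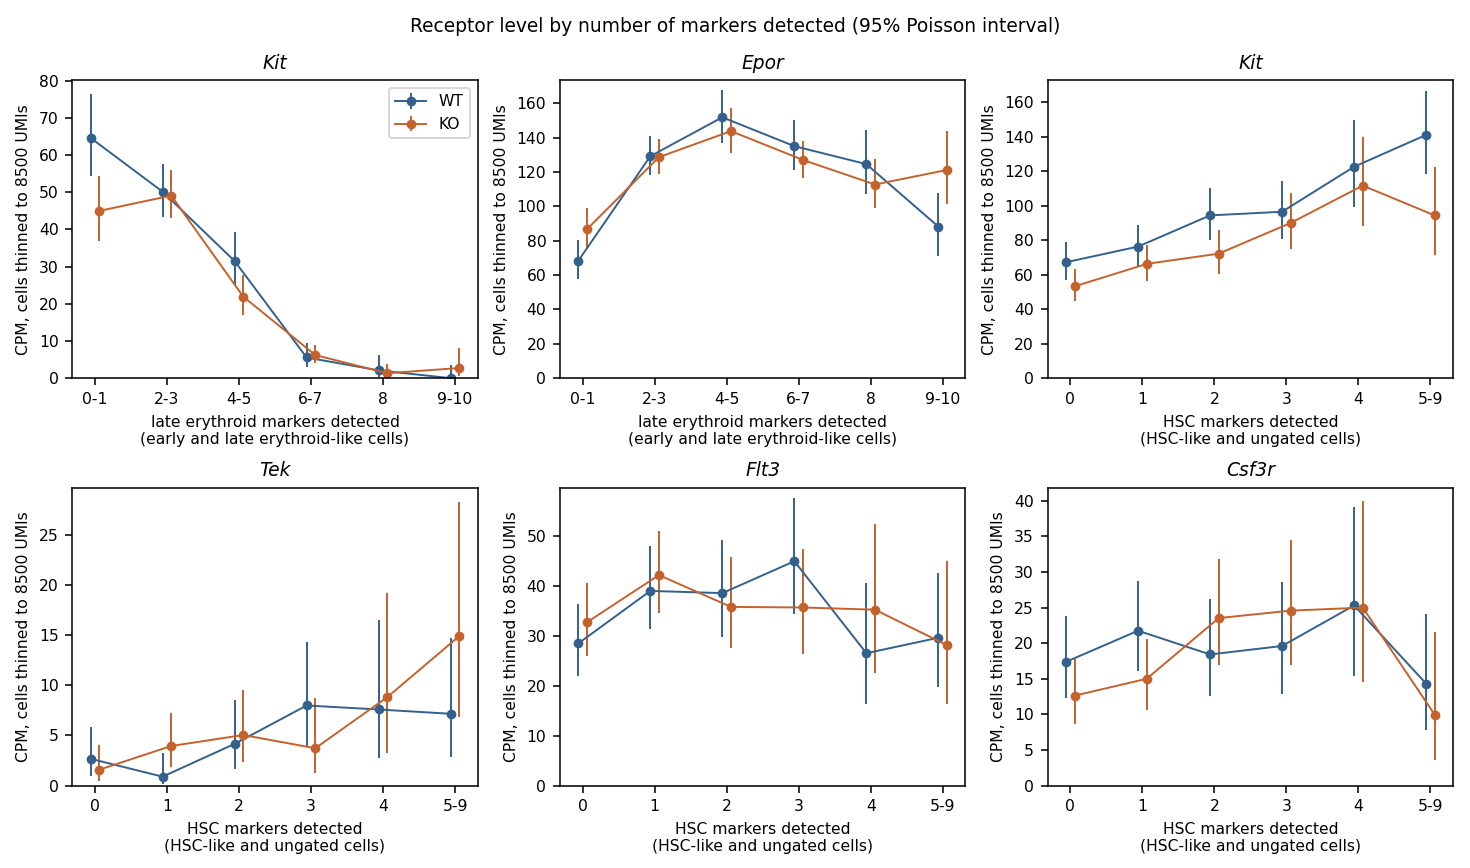
Receptor level in CPM (vertical axis) against the number of markers with a UMI per thinned cell (horizontal axis), along late erythroid markers in erythroid-like cells and along HSC markers in HSC-like and ungated cells, with 95% Poisson intervals, for WT and KO, in panels for Kit, Epor, Tek, Flt3 and Csf3r. Kit falls away along the erythroid order, from 64.6 to 0 CPM in WT and from 45.0 to 2.74 CPM in KO, while Epor stays at 68.4 CPM or above in every bin of both libraries.

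Exclusivity between the receptors was read in the thinned cells. For each of the 36 pairs, the cells with a UMI of both receptors were counted and divided by the number that the product of the separate shares gives, so that a ratio under 1 means fewer double-positive cells than independent detection. Of the 36 pairs, 7 lay under 0.5 in both libraries, and these were the pairs of Epor with every member except Kit. Flt3 and Epor were found together in 20 WT cells where the product gives 124 (ratio 0.16, 95% interval 0.10 to 0.25), and in 22 KO cells where it gives 137 (0.16, 0.10 to 0.24). Epor and Csf3r were found together in 12 and 21 cells (0.15 and 0.22), and Epor and Cxcr4 in 4 and 7 cells (0.14 and 0.16).

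Epor and Csf1r gave 0.16 (0.07 to 0.31) in WT and 0.41 (0.28 to 0.58) in KO, from 9 and 33 double-positive cells. Kit and Epor, the pair that shares the early erythroid-like cells, gave 0.59 and 0.67, so their overlap was also below the product. Without the doublet calls the Flt3 and Epor ratio was 0.10 in WT and 0.13 in KO, with 12 and 17 double-positive cells. Without the cells that passed more than 1 gate, an alternative added after the data had been seen, it was 0.14 and 0.12.

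Other pairs were found together more often than the product. Tek and Il6st gave 6.46 (4.05 to 9.76) in WT and 5.56 (3.44 to 8.48) in KO, Csf1r and Csf2rb gave 3.09 (2.19 to 4.23) and 4.96 (3.87 to 6.26), and Kit and Flt3 gave 1.52 (1.31 to 1.76) and 1.85 (1.59 to 2.15). Of the Flt3-positive cells, 47.4% in WT and 46.4% in KO also held Kit.

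Within the classes named next, the pairs Kit and Flt3, Kit and Epor, and Csf1r and Csf2rb lay near 1. The highest pair, Tek and Il6st, was not read within endothelial-like cells, nor any pair within macrophage-like cells. Kit and Flt3 gave 1.01 in WT and 1.08 in KO HSC-like cells, Kit and Epor gave 0.88 and 0.95 in early and 1.01 and 1.11 in late erythroid-like cells, and Csf1r and Csf2rb gave 1.06 and 1.15 in monocyte/dendritic-like cells, with 1 inside all 8 intervals. The ungated KO cells were an exception. There Flt3 and Epor were together in 6 cells against 15.4 from the product (0.39, 0.14 to 0.84), and Epor and Csf3r in 2 cells against 8.93 (0.22, 0.03 to 0.81), whereas Flt3 and Epor gave 0.77 (0.28 to 1.67) in ungated WT cells. A thinned cell of the HSC-like class carried a median of 1 of the 9 receptors, and 15.5% of the WT and 23.1% of the KO cells carried none at this depth. The ratios therefore describe detection at 8500 UMIs, not presence of the receptor.

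**Figure D3:**
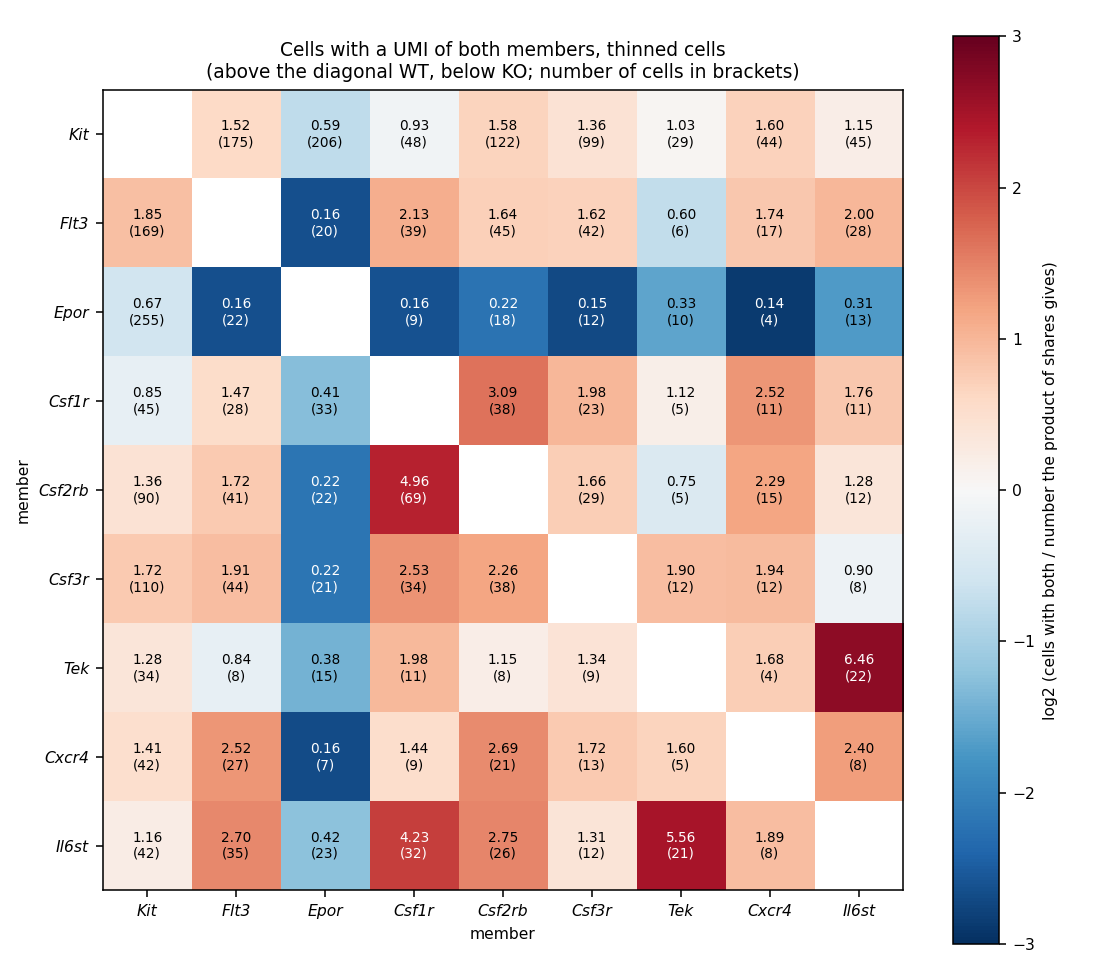
Cells with a UMI of both receptors divided by the number given by the product of their shares, for the 36 pairs in thinned cells, WT above and KO below the diagonal, with the log2 ratio as colour, the ratio printed and the number of cells in brackets. The pairs of Epor with Flt3, Csf1r, Csf2rb, Csf3r, Tek, Cxcr4 and Il6st lie between 0.14 and 0.42, and Tek with Il6st is the highest pair in both libraries (6.46 and 5.56).

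The genes whose levels ran most like those of a receptor over the 22 sums (11 classes in each library) were named from 11421 genes outside the marker lists by Pearson's r of log2(CPM + 1). For Flt3 they were Gpr171 (0.96), Lsp1 and Nrm, for Epor 1300002E11Rik (0.94), Prkag1 and Alad, an enzyme of haem synthesis, and for Csf1r Mpeg1 (0.96), the macrophage pore protein perforin-2, and AB124611. For Csf2rb they were Tyrobp (0.97), Casp1 and Ms4a6b, for Csf3r Kcnk12 (0.95), Arhgef6 and Arl11, and for Tek Esam (0.96), an endothelial adhesion molecule, Klhl4 and Ddah2. Kit was nearest to Cdc26 (0.93), Ankrd13a and Hddc2, Cxcr4 to Sp110 (0.95), Coro2a and 5430427O19Rik, and Il6st to Marcks (0.95), Ankrd40 and Lpp. The points share 2 libraries and their depth, and the r values are descriptions.

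KO was then compared with WT in each class as the log2 ratio of the CPM values, with an exact 95% interval of counting error. Over the 11 classes and 9 receptors there were 99 values, of which 65 rested on at least 20 UMIs. Of these 65, 15 (23.1%) were at least 1.5-fold apart, 10 higher and 5 lower in KO, beside 11.9% of 100944 gene and class values of all genes with the same minimum. An interval that left out 0 was found for 15 (23.1%), beside 14.8% of all genes. Both held for 9 values. The interval left out 1.5-fold for 2 values, Epor in ungated cells and Il6st in monocyte/dendritic-like cells. Over all kept cells no member was past 1.5-fold, where 8.36% of all genes were, and 4 members had an interval that left out 0, where 31.8% did. Those 4 were Csf1r (10.7 CPM in WT and 13.8 in KO, log2 0.36), Flt3 (14.4 and 11.9 CPM, -0.27), Kit (49.6 and 41.9 CPM, -0.24) and Epor (77.1 and 80.0 CPM, 0.05). In these sums the number of cells per class and the level per cell cannot be told apart, and macrophage-like cells were 0.723% of the WT and 1.61% of the KO cells. Embryo sex differed as well, since cells with a Y-linked UMI and none of Xist made up 0.116% of the WT and 17.4% of the KO cells. Among the 3315 WT and 3066 KO cells with Xist and no Y-linked UMI, 13 intervals left out 0.

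**Figure D4:**
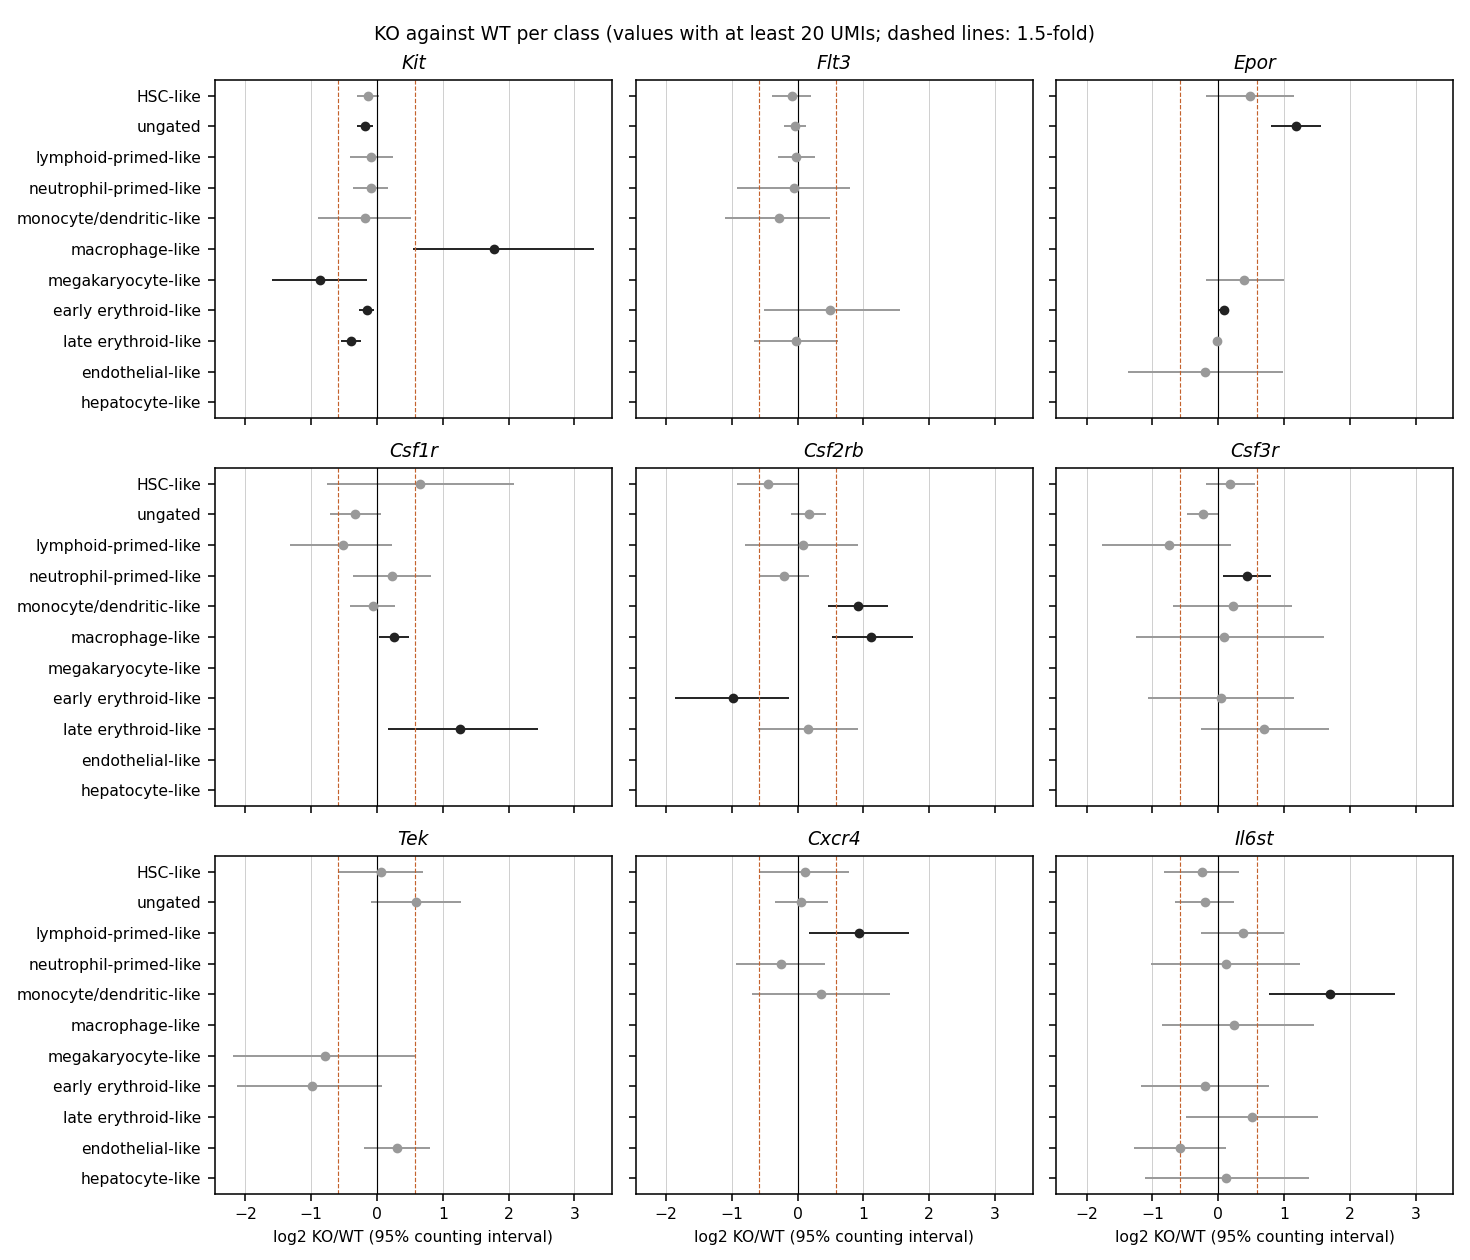
Log2 of KO over WT CPM for each receptor in each class with at least 20 UMIs in both libraries together, with exact 95% intervals of counting error (dark where the interval leaves out 0) and dashed lines at 1.5-fold. Epor in ungated cells (1.18) and Il6st in monocyte/dendritic-like cells (1.70) are the 2 values whose interval lies outside the dashed lines.

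In the HSC-like cells, of the 9 members, all with at least 20 UMIs, 1 was past 1.5-fold, beside 7.49% of 10979 genes, and it was Csf1r with 10 UMIs in each library (log2 0.66, -0.76 to 2.08). No member had an interval that left out 0, beside 10.7% of genes. All 9 HSC markers were detected in both libraries, with a summed level of 772 CPM in WT and 960 in KO (log2 0.31, 0.26 to 0.37). Kit differed by -0.13 (-0.30 to 0.04), Flt3 by -0.09 (-0.39 to 0.21), Tek by 0.06 (-0.60 to 0.71) and Csf3r by 0.18 (-0.19 to 0.55), so a 1.5-fold difference lay outside these intervals for Kit, Flt3 and Csf3r but not for Tek. The Kit value rested on the gate, at -0.30 (-0.54 to -0.07) with 1 more marker per gate and -0.32 (-0.57 to -0.08) with gates on thinned cells, where Csf3r was -0.38 (-1.01 to 0.23). Epor was at 6.03 CPM in WT and 8.43 in KO (0.48, -0.19 to 1.15), from 43 and 38 UMIs. Csf2rb was at 17.5 CPM in WT and 12.9 in KO (-0.45, -0.92 to 0.01). Its thinned share of positive cells was 15.2% and 8.46%, a difference of -6.74 percentage points with an interval that left out 0. The thinned share of Kit-positive HSC-like cells differed by -10.3 points (interval -18.2 to -2.26), beside a Kit level whose interval included 0. The thinning kept 388 of 412 WT but 260 of 358 KO HSC-like cells, so a smaller part of the KO class was compared. After thinning to 4000 UMIs, which kept 410 WT and 354 KO cells, the Kit shares were 34.6% and 28.5%. The Csf2rb shares were then 6.59% and 3.11%, and these differences have no interval.

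In the ungated progenitors Epor was the member that stood out. It had 89 UMIs in WT (5.27 CPM, 4.24 to 6.49) and 186 in KO (11.9 CPM, 10.3 to 13.8), a log2 ratio of 1.18 (0.80 to 1.56), and its thinned share of positive cells was 4.65% and 7.84%. With Tek (1.96 and 2.95 CPM, 0.59, -0.08 to 1.28), 2 of the 9 members were past 1.5-fold, beside 8.63% of 12023 genes. Epor and Kit (72.7 and 64.1 CPM, -0.18, -0.30 to -0.06) had intervals that left out 0, beside 20.4% of genes.

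Summed erythroid markers were also higher in the KO ungated cells. All 11 early erythroid markers were detected in both libraries, with a summed level of 389 CPM in WT and 491 in KO, and all 10 late erythroid markers were, with 91.1 and 245 CPM. The late markers rose likewise in HSC-like (29.3 and 81.0 CPM), where the Epor interval included 0, and lymphoid-primed-like cells (16.2 and 48.2 CPM). They were lower in KO in neutrophil-primed-like (46.3 and 38.9 CPM), macrophage-like (124 and 110 CPM) and endothelial-like cells (43.3 and 41.3 CPM). These intervals included 0. They were higher in KO in megakaryocyte-like (76.4 and 99.5 CPM), early erythroid-like (380 and 444 CPM), late erythroid-like (1806 and 2006 CPM) and hepatocyte-like cells (32.3 and 53.0 CPM). There the intervals left out 0, whereas that of monocyte/dendritic-like cells (33.0 and 37.9 CPM) included it. The part of the erythroid markers in the Epor value was not tested. The transferrin receptor gene Tfrc, which supplies iron to erythroblasts, was at 24.5 and 43.4 CPM (log2 0.82, 0.64 to 1.00). Ungated cells with 3 or 4 early erythroid markers after thinning made up 6.63% of the WT and 13.5% of the KO ungated cells, and Epor in them was 32.5 CPM (17.3 to 55.6) and 56.3 CPM (42.4 to 73.2). When the gates were set on thinned cells the Epor ratio was 0.21, and with unsupervised clusters it was 0.50.

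Among the lymphoid-primed-like cells 2 of the 7 members with enough UMIs were past 1.5-fold, beside 12.2% of 9281 genes, and 1 interval left out 0, beside 10.2%. Cxcr4 had 31 UMIs in WT (8.96 CPM) and 33 in KO (17.1 CPM), a log2 ratio of 0.93 (0.18 to 1.69), and was detected in 6 of 110 and 17 of 92 thinned cells. Csf3r was at 11.3 and 6.73 CPM (-0.74, -1.77 to 0.19). Flt3, the leading receptor of the class, differed by -0.02 (-0.30 to 0.26). Of the 12 lymphoid markers 11 were detected in each library, all but Dntt, and their summed level was 570 CPM in WT and 831 in KO, while the neutrophil markers in the same cells summed to 809 and 490 CPM. Their part in the Cxcr4 value was not tested.

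None of the 7 members measured in neutrophil-primed-like cells was past 1.5-fold, beside 9.38% of 9554 genes, and 1 interval left out 0, beside 11.9%. It was that of Csf3r, with 119 UMIs in WT (30.0 CPM) and 149 in KO (40.5 CPM), a log2 ratio of 0.44 (0.08 to 0.80). All 12 neutrophil markers were detected in both libraries and summed to 14523 CPM in WT and 17443 in KO. In the same cells megakaryocyte markers, 7 and 8 of 10 detected with Gp6 and Tubb1 at 0 in both, summed to 21.4 and 91.7 CPM, macrophage markers, 7 and 9 of 10 detected, to 9.32 and 21.5 CPM, and mast and basophil markers, 5 and 3 of 8 detected, to 134 and 90.4 CPM. Their part in the Csf3r value was not tested. The thinned shares of Csf3r-positive cells, 23.6% and 25.5%, overlapped in their intervals.

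In the monocyte/dendritic-like cells 2 of 7 members were past 1.5-fold, beside 16.2% of 7764 genes, and the same 2 had intervals that left out 0, beside 10.4%. Il6st had 15 UMIs in 49 WT cells (9.33 CPM, 5.22 to 15.4) and 32 UMIs in 48 KO cells (30.4 CPM, 20.8 to 42.8), a log2 ratio of 1.70 (0.77 to 2.69). It was detected in 2 of 49 and 9 of 46 thinned cells. Csf2rb had 76 and 94 UMIs (47.3 and 89.2 CPM, 0.91, 0.46 to 1.37). All 10 monocyte and dendritic markers were detected in both libraries, at a summed 1246 and 1347 CPM. Hepatocyte markers summed to 44.8 CPM in WT and 101 in KO in these cells. Of the 10, 7 were detected in WT (Fgb, Fga and Ahsg at 0) and all 10 in KO. Their sum was also higher in KO HSC-like (83.6 and 143 CPM), ungated (75.6 and 119 CPM) and lymphoid-primed-like cells (58.1 and 96.9 CPM). The same held for neutrophil-primed-like, megakaryocyte-like, hepatocyte-like and both erythroid-like classes. The sum was lower in KO macrophage-like (416 and 414 CPM) and endothelial-like cells (278 and 265 CPM), with intervals that included 0. The part of the hepatocyte markers in the receptor values was not tested.

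The Il6st value rested on the gate. It was 0.74 with 1 more marker per gate, 0.69 with gates on thinned cells and 0.67 with unsupervised clusters, and the interval then included 0 in each case. Csf2rb gave 0.94, 0.51 and 0.50 in the same settings. Csf1r, the M-CSF receptor that the class shares with macrophages, differed by -0.06 (-0.41 to 0.28).

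In the macrophage-like cells 2 of the 5 members with enough UMIs were past 1.5-fold, beside 26.5% of 7207 genes, and 3 intervals left out 0, beside 15.1%. Csf2rb had 28 UMIs in 25 WT cells (52.7 CPM) and 138 in 71 KO cells (114 CPM), a log2 ratio of 1.11 (0.52 to 1.75), and it lay between 0.90 and 1.38 in all 10 other settings. Csf1r was at 410 and 488 CPM (0.25, 0.03 to 0.48). All 10 macrophage markers were detected in both libraries, with summed levels of 6223 and 7605 CPM. Endothelial markers in these cells, 7 of 10 detected in each with Clec4g, Oit3 and Ptprb at 0, summed to 288 CPM in WT and 144 in KO, and mast and basophil markers to 0 and 80.0 CPM. Their part in the Csf2rb value was not tested.

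Kit had 6 UMIs in the WT and 47 in the KO macrophage-like cells (11.3 and 38.8 CPM, 1.78, 0.55 to 3.30), and of those 47 UMIs 26 came from 3 cells and 17 from 1 cell. Mast and basophil markers were at 0 for all 8 genes in WT, whereas Cpa3 and Cma1 were the 2 detected in KO. With 1 more marker per gate the Kit ratio turned to -0.52, with gates on thinned cells it was 0.08 and with unsupervised clusters 0.01.

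In the megakaryocyte-like cells 2 of 3 members were past 1.5-fold, beside 14.6% of 8315 genes, and 1 interval left out 0, beside 12.5%. Kit was lower in KO, with 37 UMIs (27.2 CPM) in 33 WT cells and 32 UMIs (14.9 CPM) in 72 KO cells (-0.87, -1.60 to -0.15), and Tek had 11 and 10 UMIs (8.08 and 4.65 CPM, -0.80, -2.19 to 0.58). Epor was at 27.2 and 35.8 CPM (0.40, -0.19 to 1.00). All 10 megakaryocyte markers were detected in both libraries, and their summed level was 6262 CPM in WT and 12501 in KO. The Kit ratio was -0.07 with 1 more marker per gate and 0.36 with gates on thinned cells.

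In early erythroid-like cells 2 of 7 members were past 1.5-fold, beside 6.4% of 11250 genes, and 3 intervals left out 0, beside 19.5%. Both past the fold were low, Csf2rb with 36 and 19 UMIs (1.64 and 0.84 CPM, -0.97, -1.86 to -0.13) and Tek with 23 and 12 UMIs (1.05 and 0.53 CPM, -0.99, -2.13 to 0.07). The summed mast and basophil markers of the same cells were 7.90 CPM in WT, with 6 of 8 detected, and 3.08 CPM in KO, with 4 of 8 detected, and with gates on thinned cells the Csf2rb ratio was -0.08. The main receptors of the class differed little. Epor was at 102 and 108 CPM (0.09, 0.00 to 0.17) and Kit at 57.2 and 51.4 CPM (-0.16, -0.27 to -0.04), and Epor turned to -0.031 with gates on thinned cells and to -0.076 with unsupervised clusters.

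In late erythroid-like cells 2 of 7 members were past 1.5-fold, beside 6.67% of 11413 genes, and 2 intervals left out 0, beside 27.4%. Csf1r had 11 UMIs in WT and 23 in KO (0.30 and 0.73 CPM, 1.27, 0.17 to 2.45) and Csf3r 17 and 24 (0.47 and 0.76 CPM, 0.70, -0.26 to 1.69). Macrophage markers in these cells, 9 of 10 detected in each library with Cd163 at 0, summed to 2.78 and 6.64 CPM. Their part in the Csf1r value was not tested, and with unsupervised clusters that value was 0.17.

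Epor in late erythroid-like cells differed by -0.03 (-0.09 to 0.03), the narrowest interval of the member values within a class. Kit was at 23.6 CPM in WT and 17.9 in KO (-0.40, -0.55 to -0.24), with thinned positive shares of 11.5% and 7.87%. The 10 late erythroid markers, all detected, summed to 1806 and 2006 CPM in the same cells. With unsupervised clusters the Kit ratio was -0.06, and with gates on thinned cells it turned to 1.04.

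In endothelial-like cells none of the 3 members with enough UMIs was past 1.5-fold, beside 17.2% of 6109 genes, and no interval left out 0, beside 6.7%. Tek differed by 0.30 (-0.20 to 0.80), Il6st by -0.58 (-1.28 to 0.11) and Epor by -0.19 (-1.37 to 0.98), and all 3 intervals reach past 1.5-fold. All 10 endothelial markers were detected in both libraries, at a summed 4173 and 3944 CPM. In hepatocyte-like cells Il6st alone had enough UMIs, 11 in WT and 15 in KO (0.11, -1.11 to 1.38), where 16.7% of 7049 genes were past 1.5-fold and 8.17% had an interval that left out 0.

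The ligands of these receptors were read from a fixed list of 17 genes. Kitl, the ligand of KIT, was at 81.2 CPM in WT and 78.5 in KO hepatocyte-like cells. In endothelial-like cells it was at 35.4 and 12.0 CPM, from only 18 and 7 UMIs (log2 -1.56, -3.06 to -0.23). Cxcl12, the ligand of CXCR4, was at 86.0 and 58.7 CPM in hepatocyte-like cells. Angpt1, a ligand of TIE2, was highest in the blood cells themselves, at 125 and 121 CPM in HSC-like, 88.1 and 60.0 in megakaryocyte-like and 63.9 and 63.4 in ungated cells. Each of these is a class in which Tek was low but present. Flt3l was at 6.54 and 6.45 CPM in late erythroid-like cells. Epo and Il3 had 0 UMIs in both libraries, and Csf2, Il34 and Csf3, named after their counts had been seen, had 2, 5 and 6 UMIs in all. Over the 11 classes 23 ligand values had at least 20 UMIs, of which 2 were past 1.5-fold higher and 1 lower in KO, beside 11.9% of the values of all genes.

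**Figure D5:**
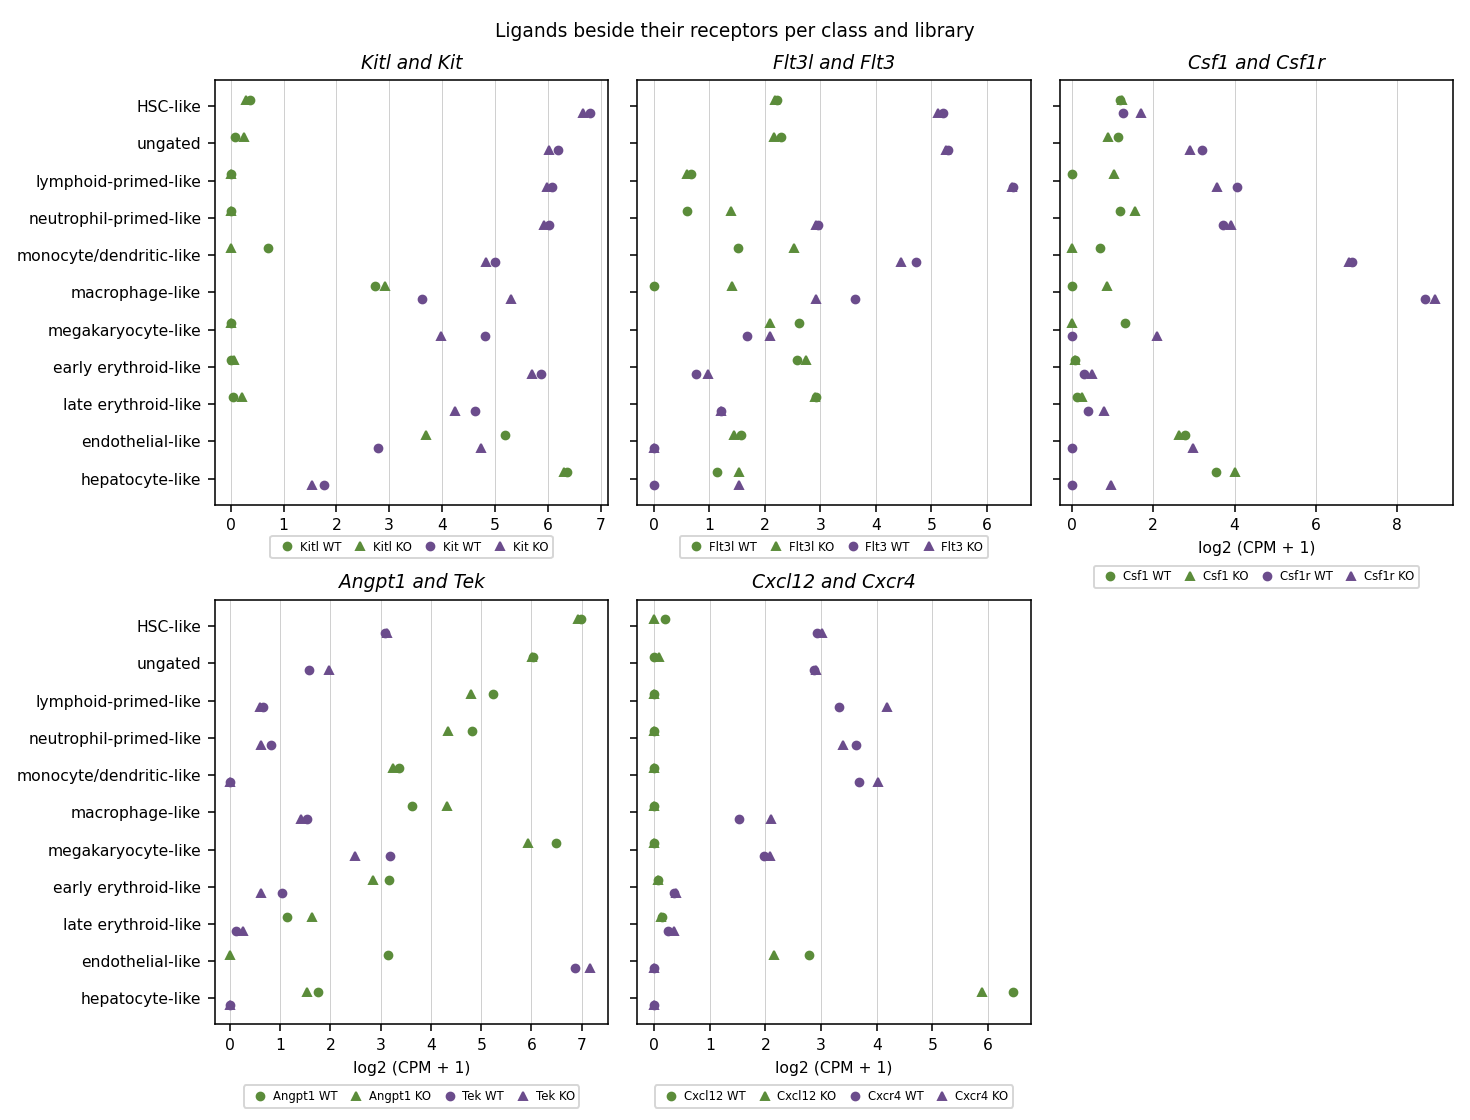
Level of 5 ligands (green) and their receptors (purple) per class as log2(CPM + 1), with circles for WT, triangles for KO and no error bars. Levels are to be compared between classes and not between genes, since CPM takes no account of transcript length or capture. Kitl and Cxcl12 are highest in hepatocyte-like cells (81.2 and 78.5 CPM, 86.0 and 58.7 CPM), where Kit is at 2.39 and 1.89 CPM and Cxcr4 at 0, and Angpt1 is highest in HSC-like cells (125 and 121 CPM).

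Other receptors and the signalling genes behind them served as a wider frame. In a list of 35 further receptors, Kdr, the VEGF receptor of endothelium, was at 651 and 652 CPM in endothelial-like cells, Tfrc at 346 and 352 CPM in late erythroid-like cells, and Lifr, which pairs with gp130, at 66.9 and 68.1 CPM in hepatocyte-like cells. Of the 195 values of this list with at least 20 UMIs, 19 were past 1.5-fold higher and 17 lower in KO, beside 11.9% of the values of all genes. Of 257 values from 30 genes of JAK-STAT signalling, 24 were higher and 14 lower, again beside 11.9% of the values of all genes. The interval left out 1.5-fold for 1 gene of these lists, Tfrc in ungated cells, described above with Epor. The median log2 ratio in HSC-like cells was 0.05 for the receptor list and 0.02 for the JAK-STAT list, beside 0.06 for the 9 members and 0.00 for all genes.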

How the data were processed

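Single cells of E14.5 fetal liver were profiled with the 10x Genomics 3′ v3 assay, 1 library per genotype. Per the labels the authors aligned reads to mm10 with Cell Ranger 6.0.0, and the deposited matrices hold raw UMI counts per gene and cell. The annotation release was not given in the sources used here. Totals were 109122324 UMIs in 3840 WT barcodes and 100029143 in 4928 KO barcodes. Barcodes under 1000 genes or above 20% mitochondrial UMIs were removed, 382 in WT and 511 in KO.

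Cells were classed by the number of listed marker genes with a UMI. The number each gate needs was set after the marker counts had been seen. Cells that passed more than 1 gate (250 WT and 311 KO) were called mixed, and 82 and 150 of these were also Scrublet doublet calls, of which there were 135 and 256 in all. Doublet calls were kept in the classes, apart from an alternative. UMIs were summed per class and library and given as CPM with exact Poisson intervals. KO was compared with WT by the log2 ratio with an exact conditional (Clopper-Pearson) interval, without a test, since there was 1 library per genotype. A ratio of at least 1.5-fold on at least 20 UMIs was counted. Shares of positive cells were taken after thinning each cell to 8500 UMIs, which left out 129 WT and 379 KO cells, with Clopper-Pearson intervals. PCR duplicates are collapsed by UMI, and intervals cover counting error only. Scripts used Python 3.11.15, scanpy 1.11.5, numpy 2.4.6, scipy 1.17.1 and pandas 2.3.3, and the ratio code was tested on simulated data.

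The members and lists were chosen with earlier results of these data known. All 9 members were named in every class, and of the other lists the 3 genes of highest CPM per class and any gene whose interval left out 1.5-fold, apart from genes that are not reported here. Gene positions come from GENCODE vM21 and promoter windows from RefSeq (GRCm38.p6). Alternatives covered cell filters, doublet calls, clusters in place of gates, gate thresholds, thinned gates, scaling and the fold rule.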

Additional observations from a re-analysis of the deposited data

Results flagged for a closer look

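The KO over WT ratio of Kit pointed in opposite directions in different classes. On the log2 scale it was -0.18 in ungated, -0.87 in megakaryocyte-like, -0.16 in early erythroid-like and -0.40 in late erythroid-like cells, and 1.78 in macrophage-like cells, each with an interval of counting error that left out 0. With 1 library per genotype the difference between classes was not tested. The macrophage-like value rests on 47 KO UMIs, 17 of them in 1 cell.

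Csf2rb also differed in direction between classes, with 0.91 in monocyte/dendritic-like and 1.11 in macrophage-like cells against -0.97 in early erythroid-like cells, where it had 36 UMIs in WT and 19 in KO. This difference was not tested either.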

How the results depend on the processing

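Of the 15 KO over WT values whose interval left out 0, followed over 10 settings, 142 of 147 values kept their direction. The 5 that turned were Kit in macrophage-like cells with 1 more marker per gate (-0.52), Kit in megakaryocyte-like cells (0.36) and in late erythroid-like cells (1.04) and Epor in early erythroid-like cells (-0.031) with gates on thinned cells, and Epor in early erythroid-like cells with unsupervised clusters (-0.076). The cause was not tested. Fewer values stayed inside their interval of the main setting where the cells were regrouped. These were 6 of 13 with unsupervised clusters, 7 of 14 with gates on thinned cells and 12 of 15 with 1 more marker per gate. In each of the other settings 14 or all 15 values stayed inside. The count of intervals leaving out 0 went from 15 to 9 with unsupervised clusters. The count past 1.5-fold went from 15 to 24 with no minimum of UMIs and to 5 at 2-fold. Pairs under 0.5 in both libraries went from 7 to 4 without thinning and to 18 when 2 UMIs were needed, and the receptors with their highest share in the class of highest CPM from 8 to 5 without thinning. Leaving out a cluster of 102 KO cells with no WT cell, added after the data had been seen, turned none of the 15 values, and Epor in ungated cells was then 1.05. No paired analysis was possible because a genotype was sequenced as 1 library. Classes under 50 cells in a library limit the precision.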
